A study of Mus musculus with 6 samples.

Results

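The nuclear receptor genes analysed were 43 named members of the family, taken from 21887 protein-coding genes of the mouse annotation. Each was described by the ESRRB regions near it, a region being a unique interval of a deposited peak list, counted when its summit (the position of highest enrichment) lay within 50 kb of the gene span on mm10. ESRRB binding had been mapped by ChIP-seq, the sequencing of DNA pulled down from fixed chromatin with an antibody, here a mouse monoclonal antibody against Esrrb. The material was E14, a mouse embryonic stem cell line derived from a blastocyst, so cell type is that of 1 cultured line. All cells had been plated in N2B27, a serum-free medium, with 2iL, a mixture of LIF, a cytokine, with CHIR99021 at 3 µM, which blocks GSK3, and PD0325901 at 1 µM, which blocks MEK. The 3 conditions were cells kept in 2iL, cells 48 h after 2iL was removed and cells 96 h after 2iL was removed. Chromatin was fixed with 1% formaldehyde and each library was made from 10 ng of DNA. Each condition had 1 ESRRB library, and the 3 input libraries were not analysed here. With 1 library per condition there was no replicate check and no test between conditions, so every value below describes these libraries. The lists hold binding only, so the cell type could not be checked against expressed markers.

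Nuclear receptors are transcription factors that share a zinc-finger DNA-binding domain and, in most members, a ligand-binding domain that responds to hormones, retinoids, sterols or other lipids, while members with no known natural ligand are called orphans. Most recognise variants of the hexamer AGGTCA, as monomers, homodimers or heterodimers with a retinoid X receptor. ESRRB is an orphan receptor of this family that binds an extended form of the hexamer as a monomer and belongs to the network that holds mouse embryonic stem cells in the naive pluripotent state.

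The 3 lists held 13767 regions in 2iL, 10970 after 48 h and 7018 after 96 h. The median fold enrichment over each library's local background was 5.88 in 2iL, 4.98 after 48 h and 4.82 after 96 h. The files give no read totals, and the lowest background behind the folds was 5.04 reads in 2iL, 8.09 after 48 h and 5.84 after 96 h. Relative to 2iL it was 1.6 times as high at 48 h and 1.16 times as high at 96 h, and its part in the results was not tested. A fold below is given with the exact Poisson 95% interval of the reads at the summit where it matters, and a share with its exact Clopper-Pearson 95% interval. Both intervals cover counting error only. That of a fold holds the background fixed and so leaves out the counting error of the background. ESRRB may have been present below the threshold where no region was called.

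Promoters of 39 of the 43 genes were available, 58 in all, as windows from 250 bases before to 50 after a RefSeq start site on GRCm38.p6, the assembly behind mm10. The 3 that overlapped an ESRRB region are printed because they are the places where ESRRB was called at a receptor gene's own start. They belong to Esrra on the minus strand (chr19:6921759-6922058), Rara on the plus strand (chr11:98964622-98964921) and Rarb on the minus strand (chr14:16575427-16575726). Each is written 5′ to 3′ along the gene, and the capitals mark receptor hexamers found in these letters, which are named after the sequences.
Esrra promoter: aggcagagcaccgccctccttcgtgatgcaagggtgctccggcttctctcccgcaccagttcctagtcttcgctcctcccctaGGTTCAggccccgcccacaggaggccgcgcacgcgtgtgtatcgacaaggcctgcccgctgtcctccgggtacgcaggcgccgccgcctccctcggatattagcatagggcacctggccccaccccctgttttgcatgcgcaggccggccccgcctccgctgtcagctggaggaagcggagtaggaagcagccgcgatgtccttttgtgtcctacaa
Rara promoter: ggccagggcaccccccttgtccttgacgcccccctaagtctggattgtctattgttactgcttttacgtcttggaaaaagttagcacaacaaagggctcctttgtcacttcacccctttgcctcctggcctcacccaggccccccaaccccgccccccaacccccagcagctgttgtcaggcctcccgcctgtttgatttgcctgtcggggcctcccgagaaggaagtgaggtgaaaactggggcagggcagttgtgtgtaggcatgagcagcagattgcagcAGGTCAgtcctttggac
Rarb promoter: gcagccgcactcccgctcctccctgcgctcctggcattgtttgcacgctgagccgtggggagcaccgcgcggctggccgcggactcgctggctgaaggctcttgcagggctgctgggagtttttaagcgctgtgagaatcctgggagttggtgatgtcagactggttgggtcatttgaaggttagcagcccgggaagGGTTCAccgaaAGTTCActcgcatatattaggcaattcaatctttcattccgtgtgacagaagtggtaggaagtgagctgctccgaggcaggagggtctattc

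In the Rarb promoter, GGTTCA began 53 bases and AGTTCA 42 bases before the start, with 5 bases between them. This pair is the known retinoic acid response element of the gene, through which retinoic acid induces this receptor. Among 21263 promoters of protein-coding genes, Rarb's was the only 1 that held the pair on either strand (0.0047%). The Esrra promoter held GGTTCA 167 bases before the start, and the Rara promoter held AGGTCA 33 bases after it. These single hexamers are common. AGGTCA stood in 10 of the 58 receptor promoters against 14.7% of all promoters, GGTTCA in 6 of 58 against 9.43%, and AGTTCA in 9 of 58 against 12.5%, each searched on both strands. AGGTCA lies within AAGGTCA, so those counts overlap.

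The form that ESRRB and its paralogs bind as monomers, AAGGTCA, stood on either strand in 3 of the 58 receptor promoters (5.17%) against 4.08% of all promoters. In promoters of protein-coding genes that overlapped a 2iL region it stood in 9.24%, and in promoters that overlapped no region in 3.67%. The longer form TCAAGGTCA stood in 0 of the 58 and in 0.334% of all promoters. The 3 receptor promoters with AAGGTCA are those of Nr6a1, Rxra and Rxrg, shown as stretches of 61 bases with the motif in capitals. They come from chr2:38784573-38784633 on the minus strand for Nr6a1, where the motif reads as its reverse complement, from chr2:27709216-27709276 on the plus strand for Rxra and from chr1:167618149-167618209 on the plus strand for Rxrg.
Nr6a1: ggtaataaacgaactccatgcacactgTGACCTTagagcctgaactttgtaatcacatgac
Rxra: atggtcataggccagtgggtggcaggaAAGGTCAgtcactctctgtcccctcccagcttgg
Rxrg: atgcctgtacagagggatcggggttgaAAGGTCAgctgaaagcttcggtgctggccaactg

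None of those 3 promoters overlapped a region in any of the 3 libraries, and the 3 promoters that did overlap one held no AAGGTCA. The nearest region to the Nr6a1 promoter was 191692 bp away in 2iL, 5508 bp at 48 h and 522 bp at 96 h. That 96 h region was weak, with a fold of 1.71, 20 reads at the summit and a q-value far above 1e-05. For Rxrg it was about 17 kb away in each library, at 17063, 17010 and 16920 bp. For Rxra it was 162803 bp away in 2iL, 136593 bp at 48 h and 162785 bp at 96 h. A match of letters describes the sequence and is not evidence of binding, and the absence of a match says only that these letters are not in this window.

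ESRRB regions lay near most of the nuclear receptor genes, and fewer of them had one at the later times. In 2iL, 31 of the 43 (72.1%, 95% interval 56.3 to 84.7) had a region within 50 kb, against 56% of all protein-coding genes. At 48 h the count was 28 (65.1%, 49.1 to 79), against 49.9%, and at 96 h it was 24 (55.8%, 39.9 to 70.9), against 39.6%. The receptor share stood above the share of all coding genes in each library. Its interval held that share at 48 h and began close to it in 2iL and at 96 h. The interval treats the genes as independent draws, while neighbours such as Thra and Nr1d1 shared regions. It therefore cannot test the difference. The lists also differed in length. When each list was held to its 7018 strongest regions, 22 receptor genes had a region in 2iL, 21 after 48 h and 24 after 96 h, against 37.8%, 37% and 39.6% of coding genes.

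**Figure D1:**
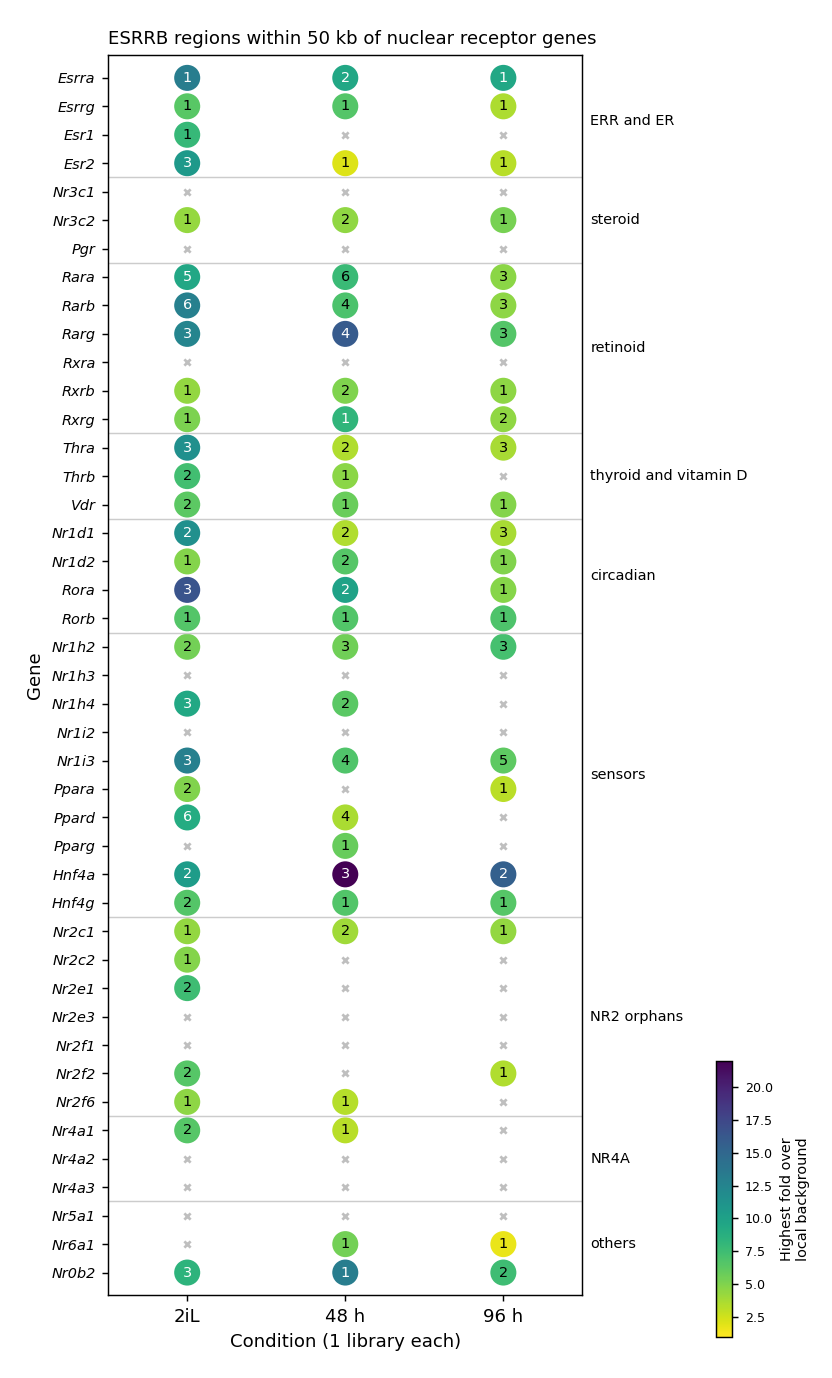
Number of ESRRB regions within 50 kb of each of the 43 nuclear receptor genes (rows, grouped by role) in 2iL, at 48 h and at 96 h, with 1 library each. The number in a circle is the count of regions, the colour is the highest fold over local background and a cross marks no region, so that Rarb and Ppard show 6 regions in 2iL and Hnf4a shows the darkest circle, a fold of 22.0 at 48 h.

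Among all coding genes, those with a longer span more often had a region within 50 kb, and receptor genes are long. The median span was 47143 bp for the receptor genes and 17169 bp for all coding genes. Among the 34 receptor genes longer than the coding median, 23 had a region in 2iL (67.6%), against 63.7% of coding genes in that class. At 48 h it was 21 (61.8%), against 56.9%, and at 96 h 17 (50%), against 44.8%. The 9 receptor genes at or under the coding median were Esrra, Rxrb, Nr1d1, Nr1h2, Nr1i3, Nr0b2, Nr2f1, Nr2f2 and Nr2f6. Of these, 8 had a region in 2iL (88.9%), against 48.4% of short coding genes, 7 at 48 h (77.8%), against 43%, and 7 at 96 h (77.8%), against 34.4%. The gap to the background was thus wider among the short receptor genes, which number only 9. Unlike coding genes as a whole, the short receptor genes had a region more often than the long ones in each library. The part of gene span in the receptor shares was not tested.

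**Figure D2:**
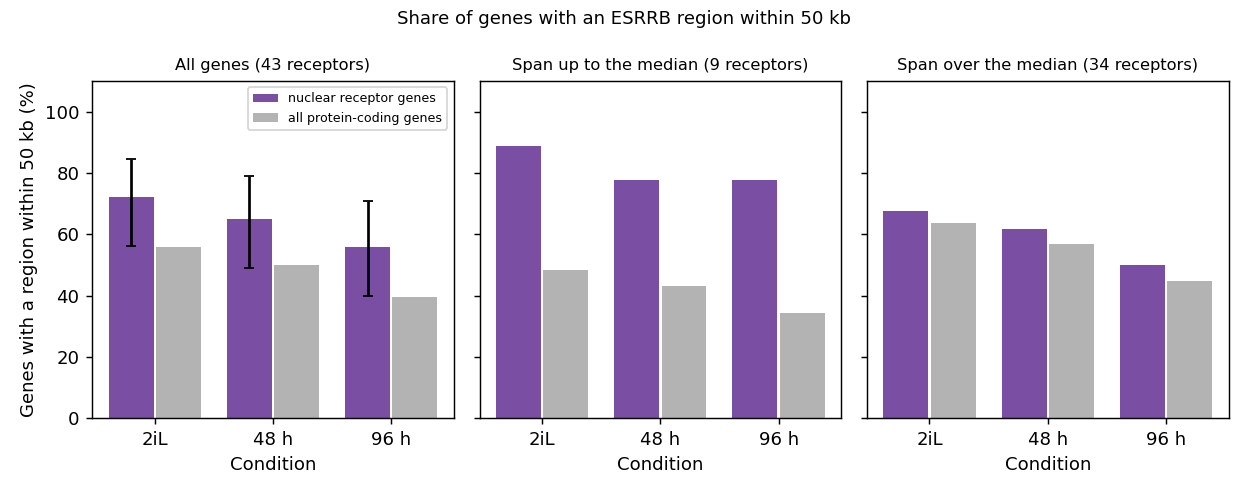
Share of genes (%) with an ESRRB region within 50 kb, for nuclear receptor genes (purple) and all protein-coding genes (grey) in 2iL, at 48 h and at 96 h, for all genes, for spans up to the coding median of 17169 bp and for longer spans. Bars in the first panel carry exact 95% binomial intervals, and the gap between purple and grey is widest for the 9 short receptor genes, 88.9% against 48.4% in 2iL.

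The receptor genes had 67 regions near them in 2iL, 56 after 48 h and 40 after 96 h, each counted once. These were 0.487%, 0.51% and 0.57% of the lists. A receptor gene had on average 1.6 regions in 2iL, 1.35 after 48 h and 1 after 96 h, against 1.24, 0.963 and 0.648 for a coding gene. The median fold of these regions was a little below that of the list in each library. It was 5.80 in 2iL, 4.58 after 48 h and 4.53 after 96 h, against list medians of 5.88, 4.98 and 4.82. Of the receptor regions, 12 were among the strongest 20% of the list in 2iL, 9 after 48 h and 3 after 96 h (17.9%, 16.1% and 7.5%), so that each share was under the 20% of the whole list. A few were weak. A q-value above 1e-05 was given to 1 region in 2iL, 3 after 48 h and 5 after 96 h, and the weakest had folds of 1.42 at 48 h (in Rara) and 1.45 at 96 h (near Nr1i3).

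Regions of the 3 lists that overlapped were merged, which gave 93 places near receptor genes, among 18634 in all. Of the 93, 32 had their summit inside a receptor gene, 31 inside another coding gene and 30 outside all coding genes, and a receptor gene was the nearest coding gene for 48 (51.6%). Called in all 3 libraries were 22 (23.7%), against 22.9% of all merged regions. Called in 2iL alone were 28 (30.1%), against 33.7%, at 48 h alone 15 (16.1%), against 15.5%, and at 96 h alone 5 (5.38%), against 5.37%. In 2iL and at 48 h there were 12 (12.9%), against 14%, in 2iL and at 96 h 4 (4.3%), against 2.65%, and at 48 h and 96 h without 2iL 7 (7.53%), against 5.92%. The receptor places were spread over these classes much as all merged regions were. In the 22 places called throughout, the 3 summits lay within 11 to 344 bp of each other, with a median of 37 bp, and within 100 bp in 20.

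**Figure D3:**
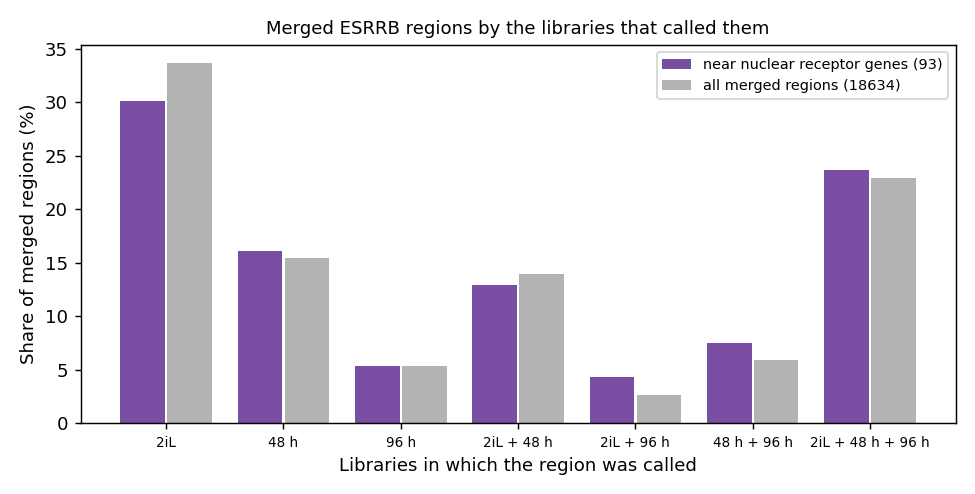
Share (%) of merged ESRRB regions by the libraries that called them, for the 93 near nuclear receptor genes (purple) and for all 18634 (grey). The classes have similar heights in both, for example 23.7% against 22.9% for regions called in all 3 libraries.

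Taken region by region, 34 of the 67 regions of 2iL near receptor genes were also called at 48 h (50.7%, 95% interval 38.2 to 63.2), against 50.7% of all 2iL regions. At 96 h 27 were called (40.3%, 28.5 to 53), against 35%. Looking back, 34 of the 56 regions of 48 h were also called in 2iL (60.7%, 46.8 to 73.5), against 63.5%, and 28 of the 40 regions of 96 h (70%, 53.5 to 83.4), against 69.5%. All 4 shares held the list-wide share inside their interval. Of the 12 receptor regions in the strongest 20% of 2iL, 9 were found again at 48 h and 7 at 96 h, where 77.5% and 62.2% of all such regions were. Of the other 55, 25 and 20 were, where 44% and 28.2% of all were.

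Where a region was called in 2iL and again later, the folds could be set side by side, each over its own library's background. At 48 h, 10 of the 34 shared regions (29.4%) had a lower fold than in 2iL with counting intervals that did not overlap, against 24.1% of all shared regions. A higher fold by the same rule was seen in 3 (8.82%), against 7.15%. Those 3 lay near Hnf4a, Rarg and Nr0b2. At 96 h, 6 of 27 were lower (22.2%), against 28.4%, and 1 was higher (3.7%), against 5.04%, again the Hnf4a region. The regions lower at both later times lay near Rora, Esrra, Rarg (inside the gene) and the neighbours Thra and Nr1d1. At 48 h all of these but Rora had more reads at the summit than in 2iL, over a higher local background. At 96 h all had fewer reads. The part of the background in the lower folds was not tested. The median ratio of folds over the shared receptor regions was 0.756 for 48 h over 2iL and 0.858 for 96 h over 2iL, against 0.839 and 0.768 for all shared regions.

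**Figure D4:**
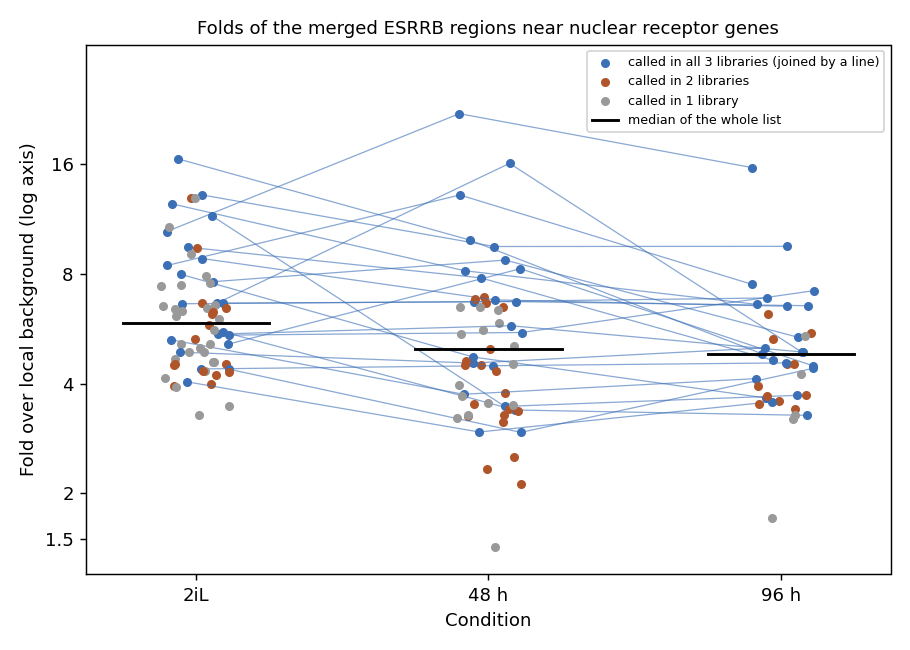
Fold over local background (log axis) of each merged ESRRB region near nuclear receptor genes in each of the 3 conditions, with lines joining the 22 regions called in all 3 libraries and black bars at the list medians of 5.88, 4.98 and 4.82. Of the 22 folds, 12 were lower at 48 h and 16 at 96 h than in 2iL, while the list medians were lower too. Ranked as a percentage of its own list, 11 of the 22 stood lower at each later time than in 2iL. The Hnf4a line peaks at 22.0 at 48 h.

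Gene by gene, 21 of the 43 receptor genes had a region in all 3 libraries, against 33.4% of coding genes. They were Esrra, Esrrg, Esr2, Nr3c2, Rara, Rarb, Rarg, Rxrb, Rxrg, Thra, Vdr, Nr1d1, Nr1d2, Rora, Rorb, Nr1h2, Nr1i3, Hnf4a, Hnf4g, Nr2c1 and Nr0b2. It was not always the same region, and no single place was called in all 3 for Esrrg, Esr2, Nr3c2 or Nr1i3. Esr2 counted at 48 h and 96 h only through regions with q-values above 1e-05. Gene span was not allowed for in this count. Of the 31 with a 2iL region, 16 had fewer regions at 48 h and 5 had none, against 53.6% and 22.5% of coding genes with a 2iL region. At 96 h 17 of the 31 had fewer and 8 had none, against 70.8% and 36.6%. More regions than in 2iL were counted at 48 h for 12 of the 43, against 14.6% of coding genes, and at 96 h for 5, against 7.58%. For Rara the extra region at 48 h was the one with a fold of 1.42. The 5 were Rxrg, Nr1d1, Nr1h2, Nr1i3 and Nr6a1. A region where 2iL had none was found at 48 h for Pparg and Nr6a1, against 6.52% of coding genes, and at 96 h for Nr6a1, against 4.07%. The 96 h regions that set Nr6a1 and Nr1d1 in these counts had folds of 1.71 and 1.62, with q-values far above 1e-05.

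The receptors closest to ESRRB itself were Esrra and Esrrg, its paralogs, and the oestrogen receptors Esr1 and Esr2. Esrra encodes ERRα, a regulator of mitochondrial and energy metabolism genes. Its region (chr19:6920673-6922887) had a fold of 13.2 in 2iL (95% interval 11.5 to 15.04, 215 reads at the summit), 9.50 at 48 h (8.45 to 10.7, 290 reads) and 9.51 at 96 h (8.22 to 10.9, 193 reads). The folds at both later times lay below the 2iL interval, and ranked in the top 5.43% of the list in 2iL, 10.8% after 48 h and 10.1% after 96 h. The summit stood 525 bp (2iL) to 530 bp (48 h) before the start site whose promoter is printed above and 77 to 93 bp from Catsperz, a neighbouring gene, so that the window overlapped the region's flank in 2iL and at 48 h and missed the narrower region of 96 h. A region in Plcb3, 48186 bp from Esrra, was called at 48 h alone with a fold of 3.21.

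Esrrg, which encodes ERRγ, had 1 region in each library but not the same one. A region inside the gene had a fold of 6.42 in 2iL alone, and another, also inside it, had folds of 6.66 at 48 h and 3.59 at 96 h. Esr1, for oestrogen receptor α, had 1 region, 21775 bp beyond its span and inside Syne1 (chr10:5027036-5028001), with a fold of 7.89 in 2iL alone. Esr2, for oestrogen receptor β, had 3 regions in 2iL. The strongest, inside Tex21 (chr12:76209402-76210001), had a fold of 10.8 (8.32 to 13.7, 64 reads) and was called in 2iL alone, as was a region in Syne2 with a fold of 7.43. The remaining region, also in Syne2, had folds of 4.31 in 2iL and 2.12 at 48 h. None of the 3 was called at 96 h, when a different region, 2427 bp from Esr2, had a fold of 3.28. The regions of 48 h and 96 h both had q-values above 1e-05. These 4 genes held 6 regions in 2iL, 4 after 48 h and 3 after 96 h.

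Of the 3 steroid receptor genes other than the oestrogen receptors, 2 had no region in any library, against 35.9% of coding genes. With 3 genes nothing particular to the group can be read from this. These were Nr3c1, for the glucocorticoid receptor, and Pgr, for the progesterone receptor. The nearest region to Pgr lay 59066 bp away in 2iL and 59341 bp at 48 h. Nr3c2, for the mineralocorticoid receptor, had a region with folds of 4.33 in 2iL and 4.33 at 48 h, and a region inside the gene with folds of 4.49 at 48 h and 5.31 at 96 h.

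The 6 retinoid receptor genes held 16 regions in 2iL, 17 after 48 h and 12 after 96 h, where a coding gene had on average 1.24, 0.963 and 0.648. They were spread unevenly in 2iL, with 6 at Rarb, whose span is 651493 bp, and 5 at Rara. Rarg had 3, Rxrb and Rxrg 1 each and Rxra none. Gene span was not allowed for in these counts. RARα, RARβ and RARγ are activated by retinoic acid, a signal that drives differentiation, and pair with the retinoid X receptors. Rarg had 3 places called in every library. Inside the gene (chr15:102249732-102251366), the fold was 12.4 in 2iL (10.0 to 15.3), 8.16 at 48 h (6.79 to 9.71) and 6.59 at 96 h (5.12 to 8.36). At a region inside the neighbour Zfp740, 22847 bp from Rarg (chr15:102210661-102213067), the fold was 6.65 in 2iL (5.13 to 8.48, 63 reads), 16.1 at 48 h (13.97 to 18.4, 210 reads) and 4.87 at 96 h (3.52 to 6.60, 40 reads). The 48 h fold was thus below that of 2iL inside Rarg and above it in Zfp740, with intervals that did not overlap. The Zfp740 region ranked in the top 1.57% at 48 h, against 38.4% in 2iL, and stood in the top 49.1% at 96 h. A region in Itgb7 had folds of 8.81, 6.79 and 6.52 across 2iL, 48 h and 96 h, and a region with a fold of 3.54 lay in Zfp740 at 48 h alone.

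Rara had 5 regions in 2iL, 6 after 48 h and 3 after 96 h. The strongest, inside the gene (chr11:98940869-98942249), had folds of 9.46 in 2iL (8.06 to 11.0), 7.80 at 48 h (6.66 to 9.07) and 4.63 at 96 h (3.50 to 6.02). The promoter region, whose summits lay 190 to 248 bp before the start site of the printed window, had folds of 4.04, 2.95 and 3.57, with intervals that overlapped. Regions at Rara's 5′ flank and in Top2a had folds of 6.30 and 6.20 in 2iL and of 3.78 and 3.28 at 48 h, and were not called at 96 h. A region beside Cdc6 was called at 48 h (3.51) and 96 h (3.69) and not in 2iL.

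Rarb had 6 regions in 2iL, 4 after 48 h and 3 after 96 h along its span of 651493 bp. The strongest (chr14:16754929-16756599) had a fold of 12.9 in 2iL (11.0 to 15.1, 155 reads) and 6.93 at 48 h (5.34 to 8.85, 62 reads), and was not called at 96 h. The 2 intervals did not overlap. Another inside the gene had folds of 7.97, 4.73 and 3.65 across 2iL, 48 h and 96 h. A region beyond the 5′ end of the gene had folds of 6.67 in 2iL and 4.53 at 96 h, and a region near its 3′ end had folds of 3.99 in 2iL and 6.50 at 48 h. The promoter that holds the retinoic acid response element (region chr14:16574737-16576010) kept its call throughout. Its folds were 5.27 in 2iL (3.97 to 6.87, 53 reads), 3.74 at 48 h (2.97 to 4.64, 80 reads) and 4.13 at 96 h (3.21 to 5.23, 66 reads), with intervals that overlapped. The 3 summits lay 109 bp in 2iL, 36 bp at 48 h and 121 bp at 96 h before the start, on either side of the pair of hexamers printed above.

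Of the 58 receptor promoters, 3 overlapped a region in 2iL and at 48 h (5.17% each) and 2 at 96 h (3.45%), against 6.21%, 4.22% and 3.33% of all promoters. Rara and Rarb held the summit itself inside the window in every library. These shares were near those of all promoters, and most regions of the receptor genes lay away from a start site.

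Among the retinoid X receptors, Rxrg had a region inside the gene (chr1:167635234-167636475) with a fold of 5.13 in 2iL (3.51 to 7.25, 30 reads), 8.26 at 48 h (6.76 to 9.99, 104 reads) and 4.48 at 96 h (3.29 to 5.96, 45 reads). Its 48 h interval overlapped that of 2iL and lay above that of 96 h. Rxrb had a region near H2-K1 with level folds of 4.39, 4.48 and 4.56, and a region inside the gene at 48 h alone (5.08). Rxra had no region within 50 kb, the nearest lying 130650 bp away in 2iL, 104255 bp at 48 h and 130662 bp at 96 h.

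Other genes that make, carry or degrade retinoic acid were counted for comparison. Of 13, 8 had a region within 50 kb in 2iL, 5 after 48 h and 4 after 96 h, beside 56%, 49.9% and 39.6% of all coding genes, so the list was not set apart by these counts. Those with none in any library were Crabp1, Rdh10, Aldh1a2 and Cyp26b1. The retinoic acid hydroxylases Cyp26a1 and Cyp26c1 and the synthesising enzyme Aldh1a3 had theirs in 2iL alone, while Aldh1a1, another synthesising enzyme, had 1 after 48 h and 1 after 96 h and none in 2iL.

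**Figure D5:**
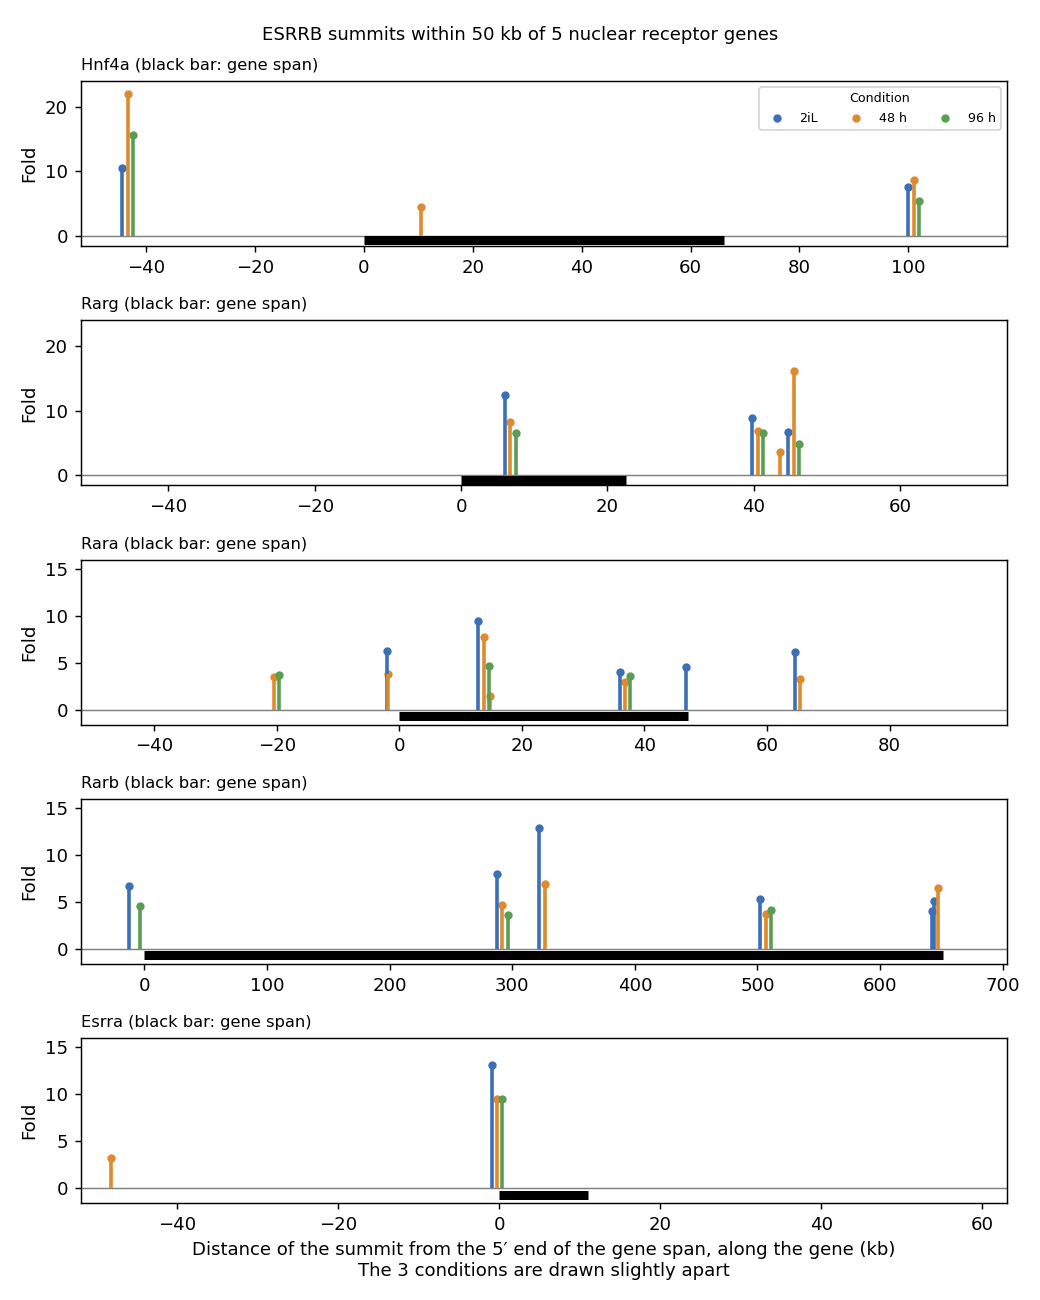
Fold over local background of ESRRB summits around Hnf4a, Rarg, Rara, Rarb and Esrra against the distance (kb) from the 5′ end of the gene span, with the gene as a black bar and the 3 conditions drawn slightly apart. The tallest lines are 48 h summits outside the gene at Hnf4a (22.0) and Rarg (16.1), whereas at Rarb and Esrra the 2iL summits are tallest, at 12.9 and 13.2.

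The thyroid hormone receptor genes Thra and Thrb and the vitamin D receptor gene Vdr held 7 regions in 2iL, 4 after 48 h and 4 after 96 h. Thra stands beside Nr1d1 and overlaps it, so 2 places were counted for both genes. The stronger, inside Thra (chr11:98754265-98755535), had a fold of 11.5 in 2iL (9.18 to 14.3, 82 reads), 3.46 at 48 h (2.84 to 4.18, 105 reads) and 3.71 at 96 h (2.75 to 4.91, 47 reads). Its intervals at both later times lay far below that of 2iL. The other had folds of 5.55, 3.38 and 3.27, with intervals that overlapped. Thrb had a region with folds of 4.49 in 2iL and 4.61 at 48 h and a stronger region called in 2iL alone (7.39), both inside the gene. Vdr had a region 3594 bp from its span with folds of 5.47, 5.76 and 4.88 across 2iL, 48 h and 96 h, and a region in Hdac7 in 2iL alone (6.33).

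The receptors of the circadian clock are the repressors REV-ERBα and REV-ERBβ (Nr1d1 and Nr1d2) and the activators RORα and RORβ (Rora and Rorb), which compete for the same elements. All 4 had a region in each library, against 33.4% of coding genes with one in all 3. With 4 genes nothing particular to the group can be read from this. Gene span was not allowed for, and Rora and Rorb span 734843 and 180588 bp. Rora held the strongest 2iL region of the family (chr9:68798154-68799059, inside the gene), with a fold of 16.5 in 2iL (13.7 to 19.8, 116 reads), 9.90 at 48 h (7.97 to 12.2, 89 reads) and 4.82 at 96 h (3.34 to 6.75, 32 reads). The 3 intervals did not overlap, and the summits lay within 22 bp. Regions of Rora with folds of 4.89 and 6.01 were called in 2iL alone and 1 with a fold of 6.49 at 48 h alone. Rorb, its paralog, had level folds at its region inside the gene, of 6.62 in 2iL, 6.71 after 48 h and 6.87 after 96 h. Nr1d2 had a region 787 to 804 bp after its start with folds of 4.88, 4.55 and 5.01, and a region in Rpl15 at 48 h alone (6.49). Of 9 other clock genes, 7 had a region in 2iL, 7 after 48 h and 3 after 96 h, beside 56%, 49.9% and 39.6% of all coding genes. Arntl, for the clock activator BMAL1, had 6, 1 and 1, and Per2 and Per3, for clock repressors, had none.

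The receptors that sense lipids, bile acids and foreign compounds were the largest group, with 10 genes and 20 regions in 2iL, 18 after 48 h and 12 after 96 h. Hnf4a, which encodes a regulator of liver and gut genes, held the strongest regions of the family at both later times. They lay at one place before the gene, 43305 bp from its span and 5197 bp from Fitm2 (chr2:163461109-163465156). The fold was 10.4 in 2iL (8.57 to 12.6, 106 reads), 22.0 at 48 h (19.6 to 24.6, 313 reads) and 15.6 at 96 h (13.2 to 18.5, 138 reads). The 3 intervals did not overlap, the summits lay within 24 bp, and the region ranked in the top 11.8% in 2iL, 0.33% after 48 h and 2.11% after 96 h. As it is nearer to Fitm2 than to Hnf4a, its assignment to Hnf4a rests on the 50 kb window. A region in Ttpal on the other side of Hnf4a had folds of 7.61, 8.72 and 5.36, and a region inside Hnf4a had a fold of 4.52 at 48 h alone. Hnf4g, its paralog, kept level folds of 6.65, 6.71 and 6.54 at a place 8137 bp from its span.

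Nr1i3, for the xenobiotic sensor CAR, had 3 regions in 2iL, then 4 at 48 h and 5 at 96 h, the most of any receptor gene at that time, though 1 of the 5 had a fold of only 1.45. Its strongest place (chr1:171204110-171204795, 9555 bp before the gene) had a fold of 12.9 in 2iL (10.9 to 15.1, 147 reads) and was not called at either later time. Among the 28 places near receptor genes called in 2iL alone, it had the highest fold. Regions in Pcp4l1 (6.81 and 6.19), in the apolipoprotein gene Apoa2 (2.52 and 3.73) and in Fcer1g (4.50 and 3.94) were called at 48 h and 96 h and not in 2iL. Another region in Fcer1g had folds of 5.80 in 2iL and 4.54 at 96 h. Nr1i2, for the related sensor PXR, had none within 50 kb, although regions lay just outside at 52053 bp in 2iL (fold 11.9), 51285 bp at 48 h (4.50) and 51244 bp at 96 h (4.95).

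Nr1h2, for the oxysterol receptor LXRβ, had 2 regions in 2iL, 3 after 48 h and 3 after 96 h. The strongest, in Spib, had folds of 5.43, 5.52 and 7.19, with intervals that overlapped. Nr1h3, for LXRα, had none. Nr1h4, for the bile acid receptor FXR, had 3 regions in 2iL, 2 after 48 h and none after 96 h, and its strongest place, inside the gene (chr10:89470119-89471475), had a fold of 9.40 in 2iL (7.19 to 12.1) and 4.96 at 48 h (3.65 to 6.61). The fatty acid receptors differed from each other. Ppard, for PPARδ, had 6 regions in 2iL, 4 after 48 h and none after 96 h, the strongest a region in Fance (chr17:28323716-28324246) with a fold of 9.09 (7.00 to 11.6) in 2iL alone. Ppara, for PPARα, had regions with folds of 4.99 and 4.14 in 2iL alone and another, 7 bp from its span, with a fold of 3.20 at 96 h alone. Pparg, for the fat cell regulator PPARγ, had a region at 48 h alone, 25146 bp from its span, with a fold of 5.87.

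Of the 7 orphan receptors of the NR2 group, 5 had a region in 2iL, 2 after 48 h and 2 after 96 h, with 7, 3 and 2 regions. The shares of all coding genes, 56%, 49.9% and 39.6%, were also lower at the later times, and with 7 genes nothing particular to the group can be read from the counts. Nr2c1, for the testicular receptor TR2, had a region in Ndufa12 called in every library with folds of 4.38, 2.94 and 4.40. Nr2c2, for TR4, had a fold of 4.89 in 2iL alone. Nr2e1, for TLX, a regulator of neural stem cells, had regions with folds of 7.54 and 3.47, both in 2iL alone. Nr2f2, for COUP-TFII, had a region with a fold of 6.55 in 2iL alone and another with folds of 3.95 in 2iL and 3.51 at 96 h. Nr2f6 had folds of 4.53 in 2iL and 3.36 at 48 h. Nr2f1, for COUP-TFI, and Nr2e3, a photoreceptor regulator, had none, but Nr2e3 had a strong region 64422 bp away in 2iL, with folds of 17.1 in 2iL, 9.86 after 48 h and 5.99 after 96 h.

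The NR4A genes are immediate early genes. Nr4a1 had regions with folds of 6.54 and 4.57 in 2iL, a different one with a fold of 3.29 at 48 h and none at 96 h, while Nr4a2 and Nr4a3 had none in any library. Among the rest, Nr0b2 encodes SHP, a receptor without a DNA-binding domain that represses others. Its strongest region (chr4:133510107-133511230, 42926 bp before the gene and nearest Gm42323) had a fold of 8.44 in 2iL (6.66 to 10.5, 75 reads), 13.2 at 48 h (11.1 to 15.5, 143 reads) and 7.48 at 96 h (5.62 to 9.76, 52 reads). The 48 h interval lay above both others. Nr6a1, for the germ cell nuclear factor GCNF, which represses pluripotency genes in differentiating cells, had no region in 2iL, 1 inside the gene at 48 h with a fold of 5.46 (4.25 to 6.91, 67 reads) and 1 at 96 h with a fold of 1.71. Nr5a1, for the steroidogenic factor SF-1, had none, the nearest at 48 h lying 50746 bp away with a fold of 5.48.

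In all, 10 receptor genes had no region in any library, against 35.9% of coding genes. They were Nr3c1, Pgr, Rxra, Nr1h3, Nr1i2, Nr2e3, Nr2f1, Nr4a2, Nr4a3 and Nr5a1. At the edge of the window, the last region inside was near Nr1h2 in 2iL (49439 bp, fold 4.21), near Nr1h2 at 48 h (49421 bp, 3.40) and near Nr0b2 at 96 h (44569 bp, 5.51). The first region outside was near Hnf4a in 2iL (51351 bp, 5.62), near Nr5a1 at 48 h (50746 bp, 5.48) and near Nr1i2 at 96 h (51244 bp, 4.95).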

How the data were processed

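ChIP-seq peak lists of 3 ESRRB libraries were used. Per the submitters' processing notes, bcl2fastq 2.20.0.422, BWA, SAMtools, Picard and MACS2 were used with the genome build mm10. For roles, filters, the calling threshold and the control, nothing was given in the sources used here. The authors deposited, per summit, a fold over local background (a ratio), a −log10 p-value and a −log10 q-value, a score capped at 1000 and the summit's offset in the interval. The fold carries a pseudocount, which pulls folds over a low background toward 1.

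From these, each unique interval was taken as a region and given its highest summit's fold. Reads at the summit were solved from fold and p-value, and were whole within 0.05 for 100% of summits in each library. Overlap needed at least 1 bp. Genes and promoters came from RefSeq tables of GRCm38.p6. Python 3.11.15, pandas 2.3.3, scipy 1.17.1 and matplotlib 3.10.9 were used. The counting was tested on simulated intervals and checked with bedtools 2.31.1, which gave equal counts for all 43 genes.

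The genes, lists and comparisons were chosen with earlier results of these data known, which holds for the gene lists for retinoic acid and the clock too. All 43 genes were named. Positions were given for the 15 genes of highest fold in any library, a promoter region and regions that those sentences compare. Alternatives were windows of 10 and 100 kb, lists of equal length, a q-value of 1e-05 or less, the strongest or mean summit, the nearest coding gene, gene ends, an overlap of 50% and a longer motif. The hexamers in promoters were chosen after the data were seen. No p-value was computed.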

Additional observations from a re-analysis of the deposited data

How the results depend on the processing

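Of 88 values under the alternatives, 70 stayed close to the reported value (within 1.5 times for a count, or within the counting interval). These include values that a setting left unchanged. The strongest summit alone gave the reported value in all 13 cases, and lists of equal length left the 96 h list whole. A window of 10 kb left 37 regions near receptor genes in 2iL, 31 after 48 h and 21 after 96 h. With it, 51.2%, 51.2% and 41.9% of receptor genes had a region, against 31.9%, 27.2% and 20.2% of coding genes. A window of 100 kb gave 118, 91 and 61 regions. With only the nearest coding gene counted, 48.8%, 46.5% and 37.2% of receptor genes had a region, against 30.3%, 25.9% and 19.1% of coding genes. Measured from gene ends, the shares were 69.8%, 58.1% and 48.8%, against 55.1%, 48.8% and 38.5%. A q-value of 1e-05 or less gave 72.1%, 62.8% and 48.8%, against 55.7%, 49.7% and 38%. Lists of equal length left 33 regions near receptor genes in 2iL and 33 at 48 h. Of the 48 h regions 42.4% were then also in 2iL, against 54.8% of all, and of the 96 h regions 37.5%, against 48.7%. Asking that both regions overlap by at least 50% put 52.5% of the 96 h regions in 2iL, against 56.8% of all. The longer motif TCAAGGTCA left 0 promoters. Lists of equal length, a window of 10 kb and the nearest gene alone can only lower these counts by construction. The same holds for an overlap of 50% and the longer motif, and a window of 100 kb can only raise them. What set the size of each change was not tested.

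No paired analysis was possible because each condition had 1 ESRRB library and no test was made. For the same reason no library was left out in turn. Read totals were not used here, and the lowest background was 5.04 reads in 2iL, 8.09 after 48 h and 5.84 after 96 h.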
